A study of Homo sapiens with 8 samples.

Results

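Recovery from heat shock was compared between wild-type and FBXW7-deleted HCT116 cells by the difference of the recovery responses, (KO recovery minus KO heat shock) minus (WT recovery minus WT heat shock), on the raw read counts of all 8 libraries. HCT116 is a human colon cancer line, grown attached in McCoy's 5A medium; WT is the parental genotype and KO the FBXW7 knockout. Of 55075 genes in the deposited tables, 32200 had a read and 17471 passed the filter on low counts and were tested. These 17471 genes were then divided into genes that moved alike in both lines and genes whose responses differed.

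Each line was sampled at heat shock and at recovery, giving 4 groups of 2 libraries. Heat shock libraries came from cells held at 42 °C for 1 h. Recovery libraries came from cells given the same heat shock and then 2 h at 37 °C, so the recovery cells had been heated as well. Unheated cells were not analysed here, and a fall at recovery therefore cannot be placed against a resting level. Whether the KO line is 1 clone, which part of FBXW7 is deleted and what separated the replicates, which the series text calls biological, is not given in the labels used here; p-values measure the spread between these libraries, which may be technical. A total of 15507896 to 34387618 reads were counted per library. In bulk libraries like these, fewer cells expressing a gene and less of its RNA per cell cannot be told apart. Levels are given as CPM, read counts relative to the library total after scaling by trimmed means (TMM), and responses as log2 ratios of recovery to heat shock.

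The libraries were not uniform. Replicates of the WT heat shock group differed most: chi-square over genes, per degree of freedom, was 19.0 there against 2.43 to 8.23 in the other groups. Coding transcripts under 1000 bases took 8.21% and 8.33% of the counts in the KO heat shock libraries and 10.7% to 11.8% in the other 6. Processed pseudogenes took 0.820% and 0.940% of the counts in the WT recovery libraries, 0.476% and 0.741% in WT heat shock, 0.622% and 0.656% in KO recovery and 0.234% and 0.321% in KO heat shock. Colon epithelial markers such as EPCAM, CDH1 and KRT8 summed to 1992 to 3014 CPM, while CDX1, LGR5 and ASCL2 had at most 6 reads in any library. Mesenchymal markers summed to 35.5 to 51.0 CPM and immune markers to 16.8 to 30.5 CPM, nearly all of it CD68. FBXW7 itself was measured at 33.5 and 31.4 CPM in the WT heat shock libraries, 23.0 and 21.7 CPM in the WT recovery libraries, 17.4 and 14.9 CPM in the KO heat shock libraries and 14.01 and 13.8 CPM in the KO recovery libraries. All KO libraries lay below all WT libraries, but without the position of the deletion the remaining reads do not test the labels further.

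Heat unfolds proteins and activates HSF1, a transcription factor that binds heat shock elements and induces chaperones; once cells return to normal temperature the refolded chaperone pool restrains HSF1 and the induction decays. FBXW7 is the substrate-binding subunit of an SCF ubiquitin ligase that directs phosphorylated proteins to the proteasome, among them MYC, cyclin E, JUN, NOTCH1 and HSF1. Heat also halts much of ribosome production and growth, raises immediate early genes through MAP kinases and SRF, and can engage the unfolded protein response and ATF4. The comparison asks which of these programs ran the same course in both lines during recovery, and which did not.

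The lines differed in the response of more genes than not in the main fit, but not under every setting. At an adjusted p under 0.05 in edgeR's quasi-likelihood test, 9833 of 17471 genes (56.3%) had responses that differed. The share was 41.9% in DESeq2, 44.8% at an adjusted p under 0.01 and 28.6% with a required 1.5-fold change. In 4979 of the 17471 genes (28.5%) the response was more upward in KO, and in 4854 (27.8%) more upward in WT. A difference of at least 2-fold was found in 2196 and 2397 of these. Processed pseudogenes made up 50 of the 4979 genes and 458 of the 4854. The commonest form of a difference among genes that passed in both lines was a reversal of direction: 2004 genes (11.5%) fell in WT and rose in KO, and 1829 (10.5%) rose in WT and fell in KO.

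Agreement was rarer. Of 4486 genes that passed in both lines, 653 moved in the same direction, 314 up and 339 down. A gene was said to move alike when it passed in both lines in the same direction and the 95% interval of the difference lay within 1.5-fold either way. By this rule 106 genes rose alike (0.607% of those tested) and 216 fell alike (1.24%). Another 162 (0.927%) moved in the same direction by different amounts, and 169 were too imprecise for either group. Among all tested genes, 2493 had an interval within 1.5-fold, and 1583 of these passed in neither line.

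For orientation, 4334 genes rose in WT (24.8%) and 4540 fell (26.0%), while 3601 rose in KO (20.6%) and 3694 fell (21.1%). Across the 17471 genes the responses of the lines had a correlation of -0.29. The log2 ratios of the replicate pairs over 13118 genes correlated at 0.871 within WT and 0.901 within KO, against -0.37 to -0.28 between lines. These correlations are across genes, which are not independent replicates, and each pair is 1 recovery and 1 heat shock library.

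**Figure D1:**
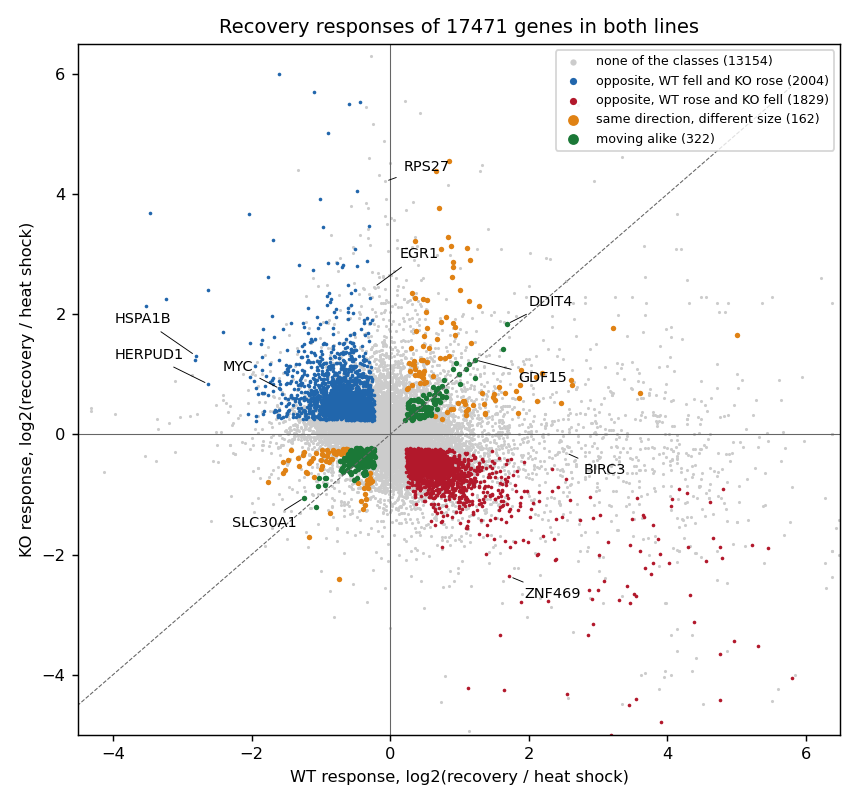
Each point is 1 of 17471 genes, with its WT response (horizontal, log2 recovery over heat shock) and its KO response (vertical); colours mark the classes, the dashed line equal responses, and 60 genes lie outside the axes. The 2004 and 1829 genes that moved in opposite directions fill the upper left and lower right corners, and the 322 that moved alike lie along the dashed line.

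Counts of genes passing in both lines moved when single KO libraries were left out. Without KO heat shock replicate 1 the genes moving oppositely numbered 1456 instead of 3833, and without KO recovery replicate 1 they numbered 1729. Leaving out KO heat shock replicate 1 or 2, or KO recovery replicate 1 or 2, left 53, 72, 70 or 77 genes moving alike in place of 322. Leaving out a WT library gave 3276 to 4105 opposite and 280 to 298 alike. Under upper-quartile scaling the median WT response moved from 0.01 to 0.10, the genes that rose and fell in WT from 4334 and 4540 to 5303 and 3686, and those that rose and fell alike from 106 and 216 to 148 and 173. The opposite genes became 1693 and 2233.

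Both responses followed the base composition of the transcript, in opposite directions. Among coding genes with a GC content under 40% (n = 1738), the median response was 0.35 in WT and -0.44 in KO. Among those of 60% and over (n = 2403), it was -0.28 in WT and 0.25 in KO. The 2004 genes that fell in WT and rose in KO had a median GC content of 58.1% and a median transcript length of 2066 bases. The 1829 opposite ones had 40.6% and 4052 bases, beside 50.1% and 2870 bases over all coding genes. Genes that rose alike had a median GC content of 50.1%, and those that fell alike 43.9%.

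Length moved with the responses as well. Coding transcripts under 600 bases (n = 185) had a median response of -0.30 in WT and 0.62 in KO, and those of 4000 bases and over (n = 4184) 0.06 in WT and -0.18 in KO. When smooth functions of length and GC content were taken out of each library, 16673 genes could be fitted, and 8433 had responses that differed, 4066 more upward in KO and 4367 more upward in WT. Of the genes called without the correction, 3058 of 4789 and 3083 of 4697 kept their call and direction, and 136 differed with the other sign. Of the opposite genes that could be fitted, 885 of 1943 and 713 of 1772 remained opposite. Of the genes moving alike, 29 of 105 that rose and 52 of 213 that fell remained so; with the correction 191 genes in all rose alike and 305 fell alike. The part of base composition and length in the results was not tested, so the value after this correction is given below beside genes it moves to another class.

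**Figure D2:**
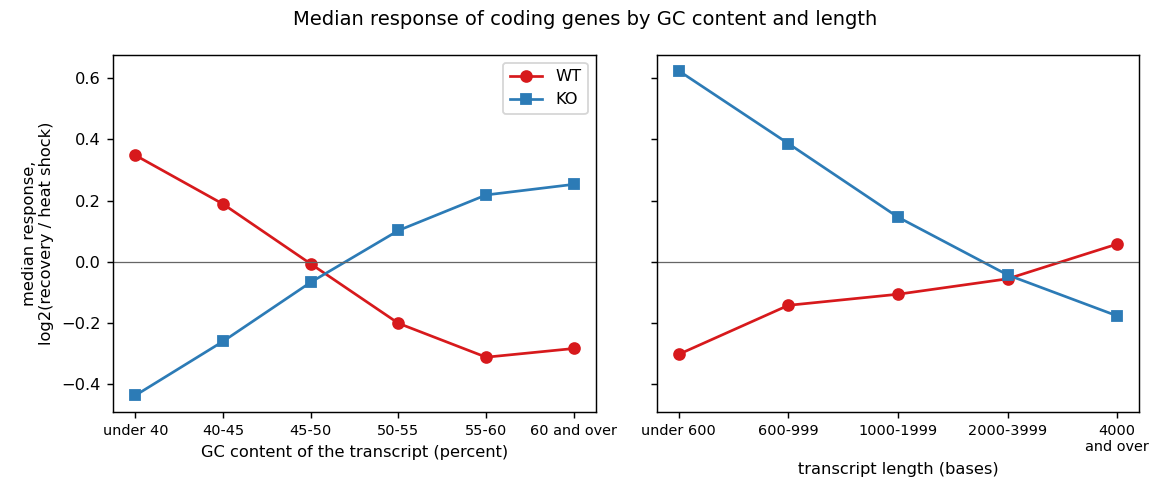
Median recovery response (log2) of coding genes in WT (circles) and KO (squares), in 6 classes of transcript GC content (left) and 5 classes of transcript length (right). The lines cross near 45 to 50% GC: WT falls from 0.35 to -0.28 and KO rises from -0.44 to 0.25.

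Most heat shock chaperones fell in WT, and 19 of 36 fell in WT and rose in KO, beside 11.5% of all genes. Of the 36 tested chaperones and HSF1 targets, 24 fell and 2 rose in WT, while 20 rose and 3 fell in KO. The responses of 29 differed (80.6%, beside 56.3% of all genes), 25 of them more upward in KO. None moved alike, near the small share over all genes (0.607% rose alike and 1.24% fell alike). Those that fell in WT and rose in KO numbered 17 in DESeq2, 18 under upper-quartile scaling and 16 of 33 among coding transcripts of at least 1000 bases. The median response was -0.54 in WT and 0.41 in KO, with a median difference of 1.30, beside 0.01, -0.02 and -0.03 over all genes. After the length and GC correction the median difference was 1.01 and 23 fell in WT and rose in KO. Among the longer coding transcripts alone the median difference was 0.79.

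HSPA1B, an inducible cytosolic HSP70, was measured at 215 and 119 CPM in the WT heat shock libraries, 26.4 and 19.9 CPM in the WT recovery libraries, 153 and 136 CPM in the KO heat shock libraries and 414 and 312 CPM in the KO recovery libraries. Both WT recovery libraries lay far below every other library, and both KO recovery libraries above them all. The responses were -2.81 and 1.31, a difference of 4.12 ± 0.16 (SE; adjusted p = 1.41e-12). Its twin HSPA1A, whose sequence is nearly identical so that reads may be split between them, responded by -2.42 and 1.70.

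DNAJB1, an HSP40 co-chaperone that loads substrates onto HSP70, had 505 and 345 CPM in the WT heat shock libraries, 116 and 107 CPM in the WT recovery libraries, 354 and 302 CPM in the KO heat shock libraries and 559 and 482 CPM in the KO recovery libraries. WT and KO levels overlapped at heat shock and were separated more than 4-fold at recovery. The difference of responses was 2.57 ± 0.15 (adjusted p = 4.02e-10). DNAJA1, another HSP40, stood at 542 and 474 CPM at heat shock and 169 and 164 CPM at recovery in WT cells, and 744 and 641 and then 949 and 887 CPM in KO cells, and all KO libraries exceeded all WT libraries.

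BAG3, which couples HSP70 to selective autophagy, had 283 and 171 CPM at heat shock and 77.0 and 70.2 CPM at recovery in WT cells, and 254 and 199 and then 427 and 380.1 CPM in KO cells. The WT heat shock replicates of BAG3, HSPA1B and SERPINH1 were spread widely, with replicate 1 the higher in each. SERPINH1, the collagen chaperone HSP47, was at 377 and 223 CPM at heat shock and 113 and 118 CPM at recovery in WT cells, and 148 and 124 and then 409.9 and 302 CPM in KO cells. HSPE1, the mitochondrial co-chaperonin whose exons overlap HSPD1, differed by 1.89 ± 0.14 and ZFAND2A, a stress-induced proteasome adaptor, by 2.90 ± 0.26.

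HSP90 itself moved less. HSP90AA1 and HSP90AB1 responded by -0.28 and -0.29 in WT and by 0.16 and 0.17 in KO. Its co-chaperones AHSA1, FKBP4, STIP1 and CDC37 had differences, of 1.83, 1.72, 1.42 and 1.47. P4HA1, a collagen prolyl hydroxylase on the same list, was the single member that rose in WT (1.13) and fell in KO (-0.42).

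Promoters are shown for the chaperones on the list that hold a complete heat shock element, because they let the responses be read beside the sequence HSF1 binds. The window runs from 250 bases before to 50 bases after the RefSeq start site (GRCh38.p14). The heat shock element was searched on both strands as alternating GAA and TTC triplets, each NN apart and in either order, and matches are in capitals. It occurred in 172 of 35116 promoters of the RefSeq table (0.49%), in 41 of the 11468 tested genes matched to a promoter (0.358%) and in 5 of 33 matched chaperones (15.2%). The 4 printed are DNAJA1 (chr9:33025023-33025322, plus strand), SERPINH1 (chr11:75562003-75562302, plus strand), HSPA8 (chr11:123062087-123062386, minus strand) and CHORDC1 (chr11:90223000-90223299, minus strand); DNAJB6 also holds the element.
DNAJA1: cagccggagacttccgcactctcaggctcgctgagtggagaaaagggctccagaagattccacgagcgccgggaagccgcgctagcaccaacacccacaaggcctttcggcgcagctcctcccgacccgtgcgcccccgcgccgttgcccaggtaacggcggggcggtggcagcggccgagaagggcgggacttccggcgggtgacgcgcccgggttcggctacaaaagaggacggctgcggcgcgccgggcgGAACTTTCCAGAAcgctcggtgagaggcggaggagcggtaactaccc
SERPINH1: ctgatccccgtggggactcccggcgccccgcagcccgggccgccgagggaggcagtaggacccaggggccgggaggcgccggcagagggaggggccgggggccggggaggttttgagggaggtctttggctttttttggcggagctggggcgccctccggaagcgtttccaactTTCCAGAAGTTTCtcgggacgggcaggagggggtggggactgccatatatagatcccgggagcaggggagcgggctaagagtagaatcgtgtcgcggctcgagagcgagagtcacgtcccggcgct
HSPA8: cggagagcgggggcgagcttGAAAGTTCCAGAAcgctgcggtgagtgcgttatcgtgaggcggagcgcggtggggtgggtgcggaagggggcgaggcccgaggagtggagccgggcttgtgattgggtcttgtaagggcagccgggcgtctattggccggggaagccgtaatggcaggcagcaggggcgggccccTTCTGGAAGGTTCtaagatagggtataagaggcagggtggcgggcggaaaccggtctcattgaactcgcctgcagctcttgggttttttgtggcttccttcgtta
CHORDC1: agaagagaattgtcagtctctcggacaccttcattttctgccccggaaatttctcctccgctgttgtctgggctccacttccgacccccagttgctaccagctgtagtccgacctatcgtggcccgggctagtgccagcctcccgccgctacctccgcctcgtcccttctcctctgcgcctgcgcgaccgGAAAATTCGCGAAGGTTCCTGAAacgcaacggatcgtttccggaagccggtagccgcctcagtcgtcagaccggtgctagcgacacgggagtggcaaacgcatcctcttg

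Among the 5 chaperones with an exact match, the element did not go with 1 kind of response. DNAJA1, SERPINH1 and HSPA8, the constitutive HSP70, fell in WT (-1.61, -1.33 and -1.46) and rose in KO (0.41, 1.38 and 0.40). CHORDC1, an HSP90-binding protein whose promoter holds 3 overlapping matches, fell in WT (-0.45) and had a KO response of -0.00. DNAJB6, another HSP40, had -0.10 and -0.14, neither past the test. Among genes that fell in WT and rose in KO, 10 of 1481 promoters held the element (0.675%), against 3 of 1338 of the reverse kind (0.224%), 1 of 78 that rose alike and 0 of 172 that fell alike.

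**Figure D3:**
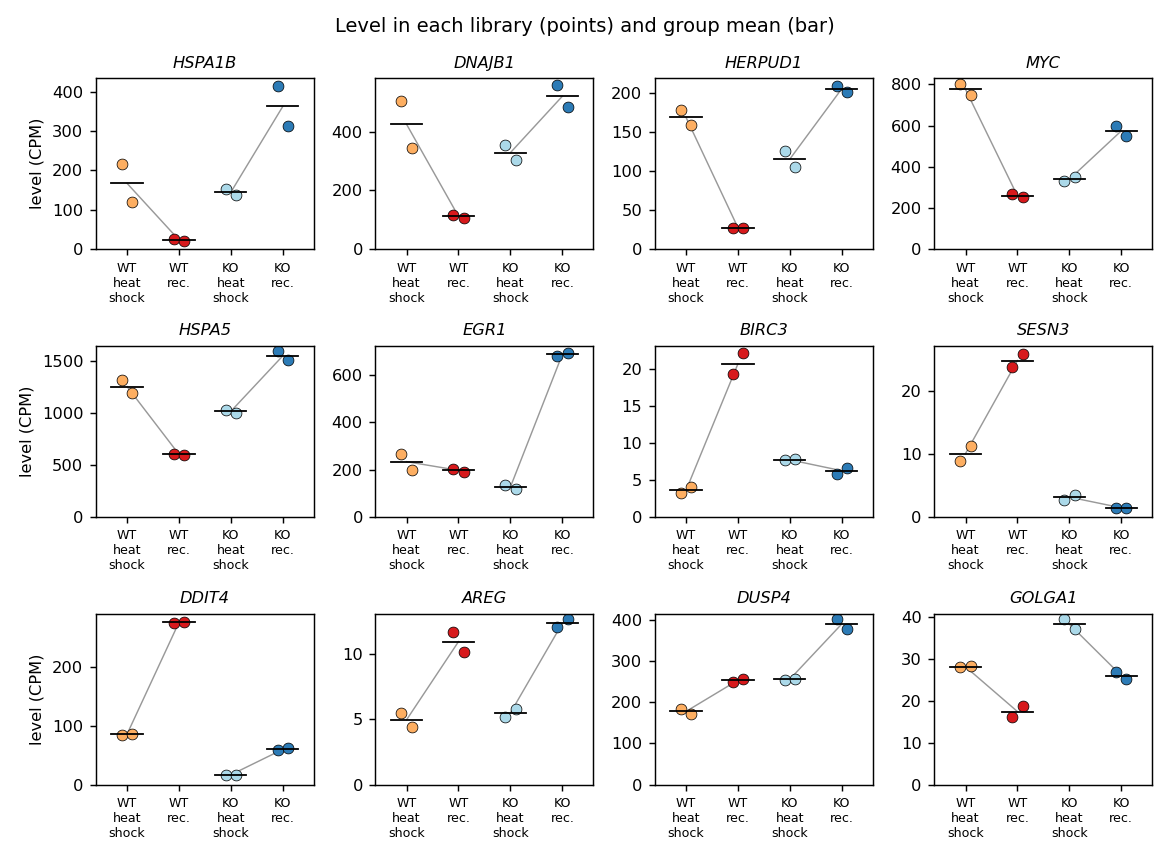
Level (CPM, linear axis from 0) of 12 genes in each library (points), with group means (short lines) and grey lines joining the means of heat shock and recovery within a line. HSPA1B, DNAJB1, HERPUD1, MYC and HSPA5 fall in WT and rise in KO, SESN3 does the reverse, and DDIT4, AREG, DUSP4 and GOLGA1 move alike.

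HSF1 transcripts themselves moved in opposite directions by small amounts. HSF1 was at 118 and 94.8 CPM in the WT heat shock libraries, 82.5 and 77.3 CPM in the WT recovery libraries, 62.2 and 64.4 CPM in the KO heat shock libraries and 81.2 and 73.8 CPM in the KO recovery libraries. The difference was 0.70 ± 0.14 (adjusted p = 2.40e-04), but it was 0.11 (adjusted p = 0.37) after the length and GC correction, and HSF1's transcript has a GC content of 63.9%, and its exons overlap DGAT1. HSF2, a paralog that can form trimers with HSF1, did the reverse, with 17.3 and 21.6 CPM at heat shock and 29.4 and 32.5 CPM at recovery in WT cells, and 28.6 and 30.7 and then 21.3 and 22.5 CPM in KO cells. Its difference was -1.11 ± 0.15, and -0.56 after the correction, where the difference still passed but the KO response did not.

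Transcripts of FBXW7 substrates more often moved upward in KO. Of 26 tested members of a list of FBXW7 and its known substrates, 13 fell and 3 rose in WT, 11 rose and 2 fell in KO, and 17 had responses that differed, 13 of them more upward in KO (65.4% differing, beside 56.3%). FBXW7 acts on the proteins, so these transcript levels do not measure its activity.

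MYC, a growth-promoting transcription factor, was at 802 and 751 CPM in the WT heat shock libraries, 266 and 251 CPM in the WT recovery libraries, 329 and 350.0 CPM in the KO heat shock libraries and 600.02 and 549 CPM in the KO recovery libraries. The WT heat shock libraries were highest and the WT recovery libraries lowest, and the KO libraries lay between with the order of the conditions reversed. The difference was 2.34 ± 0.14 (adjusted p = 4.63e-10). CCNE1, the G1/S cyclin E1, stood at 31.4 and 28.7 CPM at heat shock and 21.5 and 18.8 CPM at recovery in WT cells, and 48.7 and 47.0 and then 65.9 and 61.3 CPM in KO cells, and its responses differed by 0.99 ± 0.14.

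NOTCH1, a cell surface receptor, and KLF5, an epithelial growth regulator, differed by 1.31 ± 0.14 and 0.89 ± 0.13. JUN, an AP-1 subunit, had 28.9 and 18.2 CPM at heat shock and 20.2 and 24.4 CPM at recovery in WT cells, and 10.5 and 10.8 and then 16.5 and 15.8 CPM in KO cells. Its WT libraries overlapped between the conditions. The difference of 0.65 ± 0.22 (adjusted p = 0.0176) did not hold in DESeq2 (adjusted p = 0.0923) or after the length and GC correction (0.20, adjusted p = 0.415). For FBXW7 the responses were -0.54 and -0.21, with a difference of 0.33 ± 0.15 (adjusted p = 0.0801) that became 0.97 (adjusted p = 1.61e-05) after the correction.

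The endoplasmic reticulum response was mixed. The ER stress element, searched by its full consensus on both strands, stood in 7 of 24 matched promoters of the unfolded protein response (29.2%), beside 27 of all 35116. Of 27 genes tested, 11 fell and 7 rose in WT, beside 26.0% and 24.8% of all genes. In KO 12 rose and 3 fell, beside 20.6% and 21.1%. The responses of 21 differed (77.8%, beside 56.3%), 15 more upward in KO. HERPUD1, a component of ER-associated degradation, was at 179 and 159 CPM in the WT heat shock libraries, 27.5 and 27.2 CPM in the WT recovery libraries, 125 and 106 CPM in the KO heat shock libraries and 209.9 and 202 CPM in the KO recovery libraries. Its WT recovery level was the lowest of the groups and its KO recovery level the highest, with a difference of 3.46 ± 0.14 (adjusted p = 2.07e-12) that was 3.51 after the length and GC correction.

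HSPA5, the ER HSP70 known as BiP, had 1317 and 1198 CPM at heat shock and 605 and 601 CPM at recovery in WT cells, and 1032 and 1007 and then 1597 and 1512 CPM in KO cells. SDF2L1, an ER chaperone partner, differed by 3.54 ± 0.19. XBP1, a transcription factor of the response, and DNAJB9, an ER HSP40 whose exons overlap THAP5, fell in WT (-1.33 and -1.83) and responded by -0.07 and -0.17 in KO, neither past the test. ERO1L, the ER oxidase, went the other way, with 92.3 and 129 CPM at heat shock and 217 and 231 CPM at recovery in WT cells, and 267 and 289.6 and then 142 and 162 CPM in KO cells. SEC61B, a translocon subunit, was the single member that moved alike (0.53 and 0.34), and it no longer did after the correction.

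More immediate early genes passed upward in KO than in WT, with exceptions on both sides. Of 39 tested, 12 rose and 9 fell in WT, beside 24.8% and 26.0% of all genes. In KO 26 rose and 1 fell, beside 20.6% and 21.1%. The median response was 0.12 in WT and 0.47 in KO, and 29 differed (74.4%), 22 more upward in KO and 7 more upward in WT. After the length and GC correction these were 18 and 9, and the median difference went from 0.43 to 0.20.

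EGR1, an early growth response transcription factor, was at 268 and 199 CPM in the WT heat shock libraries, 202 and 192 CPM in the WT recovery libraries, 135 and 117 CPM in the KO heat shock libraries and 682 and 694 CPM in the KO recovery libraries. The KO recovery libraries stood apart from all others, while the WT libraries overlapped between conditions. The difference was 2.68 ± 0.15 (adjusted p = 2.12e-10). Its promoter holds SRF's CArG box, a motif found in 454 of 35116 promoters (1.29%) and in 2 of 30 matched early genes. The window (chr5:138465229-138465528, plus strand, GRCh38.p14) is printed with its 2 boxes in capitals.
EGR1: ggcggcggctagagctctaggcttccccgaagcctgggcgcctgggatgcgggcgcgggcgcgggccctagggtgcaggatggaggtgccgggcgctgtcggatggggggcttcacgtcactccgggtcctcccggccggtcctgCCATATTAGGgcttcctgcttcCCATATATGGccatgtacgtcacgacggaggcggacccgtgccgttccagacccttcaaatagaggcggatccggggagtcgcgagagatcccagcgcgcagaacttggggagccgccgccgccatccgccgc

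EGR2 and EGR3 had KO responses of 2.91 and 2.07 and WT responses of 0.34 and 0.35. FOS, an AP-1 subunit, had 24.4 and 17.4 CPM at heat shock and 14.5 and 14.4 CPM at recovery in WT cells, and 13.0 and 10.8 and then 31.0 and 31.4 CPM in KO cells, opposite in direction. GADD45A, a growth arrest gene, and HES1, a Notch target, were raised in WT (1.66 and 1.63) with KO responses of 0.00 and 0.20. ID2 and ID3, inhibitors of helix-loop-helix factors, fell in WT (-2.09 and -1.56) and responded by -0.14 and -0.06 in KO, neither past the test. After the length and GC correction the KO response of ID3 was -0.44 (adjusted p = 3.29e-04), so it fell in both lines by different amounts. JUNB, ID1 and MAFF moved alike; after the correction none of these did, while 6 members of the list were alike.

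Feedback regulators of ERK signalling divided among the classes. Of 23 tested, 4 fell in WT and rose in KO, 2 did the reverse, 2 moved alike and 1 moved in the same direction by different amounts. Over all genes the shares of the opposite classes were 11.5% and 10.5%. Those that rose alike, fell alike and differed in size were 0.607%, 1.24% and 0.927%. DUSP2, a nuclear MAP kinase phosphatase, had 8.60 and 9.75 CPM at heat shock and 2.86 and 2.85 CPM at recovery in WT cells, and 8.95 and 10.03 and then 29.5 and 28.9 CPM in KO cells, a difference of 3.30 ± 0.20. DUSP5, a phosphatase specific for ERK, rose in both lines, from 92.8 and 69.8 to 177 and 178 CPM in WT and from 44.1 and 41.9 to 212 and 192 CPM in KO, and rose more in KO (difference 1.09 ± 0.15). ETV1, an ETS factor, rose in WT (0.60) and fell in KO (-0.51). The median difference over the list was 0.18.

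Most ribosome biogenesis genes fell in WT. Of 35 ribosome biogenesis genes, 29 fell and 2 rose in WT, beside 26.0% and 24.8% of all genes. In KO 14 rose and 4 fell, beside 20.6% and 21.1%. The median responses were -0.55 and 0.20, and 25 differed (71.4%, beside 56.3%), 22 more upward in KO. PPAN, a nucleolar factor for the large subunit whose exons are shared with the PPAN-P2RY11 readthrough, had 80.9 and 64.4 CPM at heat shock and 24.6 and 23.1 CPM at recovery in WT cells, and 53.6 and 51.3 and then 100.02 and 94.1 CPM in KO cells. Its WT recovery libraries were below all others and its KO recovery libraries above them. URB2, a nucleolar factor, fell in WT by 1.93 and rose in KO by 0.23. UTP15, of the small-subunit processome, and NOP58, of box C/D particles, fell alike (-0.56 and -0.66, and -0.27 and -0.34), but neither was alike after the length and GC correction.

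Cytosolic ribosomal proteins differed through the KO side. Of 57, 52 rose and 1 fell in KO, beside 20.6% and 21.1% of all genes. In WT 16 fell and 4 rose, beside 26.0% and 24.8%. The median response was 1.00 in KO and -0.08 in WT, the latter turning to 0.02 under upper-quartile scaling, and 50 differed (87.7%). RPS27, a small-subunit protein, was at 46.9 and 42.0 CPM in the WT heat shock libraries, 43.2 and 41.3 CPM in the WT recovery libraries, 2.96 and 1.88 CPM in the KO heat shock libraries and 50.5 and 38.1 CPM in the KO recovery libraries. The KO heat shock libraries were the low ones, and the other 6 overlapped. RPS28, whose exons overlap KANK3, had 276 and 314 CPM at heat shock and 235 and 189 CPM at recovery in WT cells, and 15.3 and 18.5 and then 295 and 267 CPM in KO cells. Its KO heat shock libraries were also lowest, but it fell in WT as well. These transcripts are short, with a median of 737 bases, have many processed pseudogenes, and belong to the size class that is underrepresented in the KO heat shock libraries. The median difference was 1.23, and 0.83 after the length and GC correction.

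Nuclear genes of oxidative phosphorylation had the same shape with a clearer fall in WT. Of 37, 22 fell and 3 rose in WT, beside 26.0% and 24.8% of all genes. In KO 30 rose and 2 fell, beside 20.6% and 21.1%. The responses of 34 differed (91.9%, beside 56.3%), 32 more upward in KO. NDUFS5, a complex I subunit, had 371 and 364 CPM at heat shock and 189 and 186 CPM at recovery in WT cells, and 146 and 137 and then 512 and 317 CPM in KO cells. The KO heat shock level was the lowest of the groups. ATP5G1, a subunit of the ATP synthase ring, differed by 2.01 ± 0.16. The list's median difference was 1.15, and 0.82 after the correction, and its median transcript was 958 bases long.

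Mitochondrial ribosomal proteins (75 tested) had medians of -0.33 and 0.23. In all, 28 fell in WT and rose in KO and 3 did the reverse, beside 11.5% and 10.5% of all genes. MRPL17 had 129 and 127 CPM at heat shock and 66.7 and 68.7 CPM at recovery in WT cells, and 81.8 and 78.9 and then 167 and 138 CPM in KO cells and a difference of 1.83 ± 0.13, which was 1.84 after the correction. MRPL33, MRPS36 and MRPL46 moved alike. After the correction 21 fell in WT and rose in KO and 7 moved alike, MRPL33 but not MRPS36 or MRPL46 among them. Of 32 proteasome subunits, 22 fell and 2 rose in WT, beside 26.0% and 24.8% of all genes. In KO 18 rose and 3 fell, beside 20.6% and 21.1%. PSMD4, a ubiquitin receptor of the proteasome, had 269.6 and 199 CPM at heat shock and 111 and 108 CPM at recovery in WT cells, and 120.0 and 121 and then 269 and 212 CPM in KO cells. PSMD12, a lid subunit, fell alike (-0.32 and -0.26), though not after the correction.

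Cell cycle genes were described as a G1/S list and a mitotic list. In WT, 34 of 40 genes of G1/S and DNA replication fell and 1 rose, beside 26.0% and 24.8% of all genes. In KO, 11 rose and 7 fell, beside 20.6% and 21.1%. The median responses were -0.77 and 0.03, and 32 differed (80.0%, beside 56.3%), 30 more upward in KO. MCM2, a subunit of the replicative helicase whose exons overlap TPRA1, had 427 and 328 CPM at heat shock and 150.1 and 139.6 CPM at recovery in WT cells, and 238 and 251 and then 381 and 353 CPM in KO cells. CDC25A, the phosphatase that activates cyclin-dependent kinases, fell in WT from 41.4 and 38.8 to 11.4 and 10.9 CPM, while KO levels were 73.9 and 71.3 and then 63.8 and 64.8 CPM, a change that did not pass. After the correction the KO response of CDC25A was -0.20 (adjusted p = 0.04), so it fell in both lines by different amounts.

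Mitotic genes did not share a direction. Of 38, 19 fell and 5 rose in WT, beside 26.0% and 24.8% of all genes. In KO 15 fell and 4 rose, beside 21.1% and 20.6%. The responses of 30 differed (78.9%, beside 56.3%), 17 more upward in KO and 13 more upward in WT. PLK1, a mitotic kinase whose exons overlap ERN2, had 361 and 282 CPM at heat shock and 127 and 129 CPM at recovery in WT cells, and 282 and 294 and then 403 and 357 CPM in KO cells. CENPE, a kinetochore motor, went the other way with 71.0 and 91.2 CPM at heat shock and 115 and 130.1 CPM at recovery in WT cells, and 198 and 177 and then 90.0 and 104 CPM in KO cells. MKI67, the Ki-67 antigen, fell alike, from 997 and 915 to 663 and 717 CPM in WT and from 1041 and 920.2 to 777 and 798 CPM in KO. After the correction the KO response of PLK1 was 0.18 and did not pass. PLK1 has a GC content of 57.3% and CENPE of 35.3%, and after the length and GC correction the list had 17 more upward in KO, 6 more upward in WT and 8 alike, with a median difference of 0.11.

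Cholesterol synthesis also fell in WT. Of 29 genes of the pathway and other SREBP targets, 19 fell and 3 rose in WT, beside 26.0% and 24.8% of all genes. In KO 13 rose and 7 fell, beside 20.6% and 21.1%. The responses of 23 differed (79.3%, beside 56.3%). HMGCS1 and IDI1, enzymes of the same pathway, fell alike (-0.52 and -0.42, and -0.50 and -0.28), but not after the length and GC correction, where the KO responses were -0.05 and 0.05.

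SR proteins and their kinases regulate splicing, which heat disturbs. Of 20, 13 fell and 3 rose in WT, beside 26.0% and 24.8% of all genes. In KO 6 rose and 4 fell, beside 20.6% and 21.1%. The responses of 16 differed (80.0%, beside 56.3%), 14 more upward in KO (beside 28.5%). SRSF7 had 212 and 215 CPM at heat shock and 75.5 and 74.7 CPM at recovery in WT cells, and 171 and 156 and then 357 and 239 CPM in KO cells, a difference of 2.35 ± 0.15. SRSF5 fell in both lines (-1.03 and -0.73), and alike by the interval of the difference, 0.02 to 0.57, but by different amounts after the correction (-1.12 and -0.71).

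Some lists had more members with responses more upward in WT. Of 22 NF-kappaB targets, 11 rose and 5 fell in WT, beside 24.8% and 26.0% of all genes. In KO 2 rose and 4 fell, beside 20.6% and 21.1%. The median responses were 0.50 and -0.09. The responses of 13 differed (59.1%, near the 56.3% of all genes), 10 more upward in WT (beside 27.8%). Only 3 rose in WT and fell in KO (beside 10.5% of all genes), and 1 in DESeq2. The median difference of -0.65 was -0.72 after the length and GC correction.

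BIRC3, an inhibitor of apoptosis induced by NF-kappaB, was at 3.17 and 4.001 CPM in the WT heat shock libraries, 19.3 and 22.2 CPM in the WT recovery libraries, 7.68 and 7.79 CPM in the KO heat shock libraries and 5.85 and 6.66 CPM in the KO recovery libraries. The WT recovery libraries stood above all others, and both KO recovery libraries lay just below both KO heat shock libraries. The difference was -2.84 ± 0.21 (adjusted p = 4.18e-09), and the KO response did not pass. TNFAIP8, an apoptosis regulator, had 8.96 and 9.75 CPM at heat shock and 22.4 and 22.9 CPM at recovery in WT cells, and 16.9 and 15.8 and then 6.69 and 8.53 CPM in KO cells, opposite in direction. TNFAIP3, the deubiquitinase A20, had 2.46 and 2.31 CPM at heat shock and 4.31 and 4.09 CPM at recovery in WT cells, and 6.81 and 7.08 and then 4.64 and 4.64 CPM in KO cells. NFKBIB, an inhibitor protein of the pathway whose exons overlap SIRT2, went against the list with a difference of 0.78 ± 0.15, and after the correction it fell alike.

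Of 29 p53 targets, 13 rose and 6 fell in WT, beside 24.8% and 26.0% of all genes. In KO 7 rose and 11 fell, beside 20.6% and 21.1%. The responses of 21 differed (72.4%, beside 56.3%), 13 more upward in WT (beside 27.8%). RRM2B, a ribonucleotide reductase subunit, had 42.1 and 65.4 CPM at heat shock and 104 and 110.3 CPM at recovery in WT cells, and 76.8 and 75.2 and then 38.3 and 47.3 CPM in KO cells. CCNG1, cyclin G1, had 120.3 and 155 CPM at heat shock and 267 and 280.1 CPM at recovery in WT cells, and 199 and 181 and then 134 and 152 CPM in KO cells, and after the length and GC correction its KO response was 0.00. AEN, an apoptosis nuclease, differed the other way, falling in WT from 86.2 and 70.5 to 26.0 and 25.2 CPM with KO levels of 93.5 and 89.3 and 92.9 and 88.3 CPM. GDF15 and TNFRSF10B moved alike. CDKN1A, the p21 inhibitor and a defining target, responded by 0.29 and 0.12.

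SESN3, a stress-induced regulator of growth signalling, had 8.91 and 11.2 CPM at heat shock and 23.8 and 25.9 CPM at recovery in WT cells, and 2.73 and 3.55 and then 1.47 and 1.41 CPM in KO cells. The WT recovery libraries were the highest and the KO recovery libraries the lowest, with no overlap between any 2 groups. The difference was -2.44 ± 0.25 (adjusted p = 1.77e-07), and -1.64 after the correction. PDK4, a pyruvate dehydrogenase kinase, rose in WT by 2.60 and fell in KO by 1.09, at levels of 1.18 and 1.85 to 8.20 and 10.03 CPM in WT and 1.27 and 1.11 to 0.402 and 0.685 CPM in KO. After the correction its KO response was -0.70 and did not pass. BNIP3L, a mitophagy receptor, differed by -1.60 ± 0.14 and DDIT4L, a relative of DDIT4, by -3.24 ± 0.30.

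Zinc finger genes named ZNF formed the largest list with this direction. Of 372 tested, 89 rose and 88 fell in WT, beside 24.8% and 26.0% of all genes. In KO 32 rose and 162 fell, beside 20.6% and 21.1%. In 161 the response was more upward in WT and in 78 more upward in KO, beside 27.8% and 28.5% of all genes. Opposite in direction were 53 that rose in WT and fell in KO and 17 of the reverse, beside 10.5% and 11.5%. After the length and GC correction these were 101 and 68, and 28 and 19. Over all 16673 genes fitted with the correction they were 4367 and 4066, and 1215 and 1300. The median difference of the list went from -0.44 to -0.14. In DESeq2 23 and 7 were opposite. ZNF277 had 14.3 and 17.5 CPM at heat shock and 34.2 and 34.7 CPM at recovery in WT cells, and 19.6 and 21.3 and then 12.6 and 12.7 CPM in KO cells. ZNF593 went the other way with 44.6 and 41.8 CPM at heat shock and 21.8 and 21.0 CPM at recovery in WT cells, and 19.1 and 19.2 and then 77.9 and 60.6 CPM in KO cells. Another 14 moved alike, 2 up and 12 down, ZNF367 and ZNF544 among those that fell; ZNF544 left the alike class after the correction.

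The remaining lists were mixed. Of 30 hypoxia and glycolysis genes, 10 fell in WT and rose in KO and 5 did the reverse, beside 11.5% and 10.5% of all genes. JMJD6, a lysyl hydroxylase, differed by 2.41 ± 0.14, and KDM3A, a histone demethylase, by -1.49 ± 0.13. After the correction 4 and 4 were opposite, 9 were more upward in KO and 11 more upward in WT, and the median difference went from 0.41 to 0.13. Of 23 NRF2 and oxidative stress genes, 7 and 2 moved oppositely, beside the same 11.5% and 10.5%. Among them were GPX4, which detoxifies lipid peroxides (-0.33 and 1.14), and GCLC, of glutathione synthesis (0.52 and -0.30). After the correction neither was opposite: the WT response of GPX4 was -0.04 and the KO response of GCLC -0.09, both short of the threshold. Of 20 aminoacyl-tRNA synthetases, 10 differed (50.0%), and of 15 mitochondrially encoded genes, 8 (53.3%). Both shares were near the 56.3% of all genes that differed. CCT chaperonin and prefoldin genes (14 tested) had 9 that differed (64.3%, beside the same 56.3%). Of these, 7 were more upward in KO (beside 28.5% of all genes), such as CCT5 (-0.59 and 0.42).

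**Figure D4:**
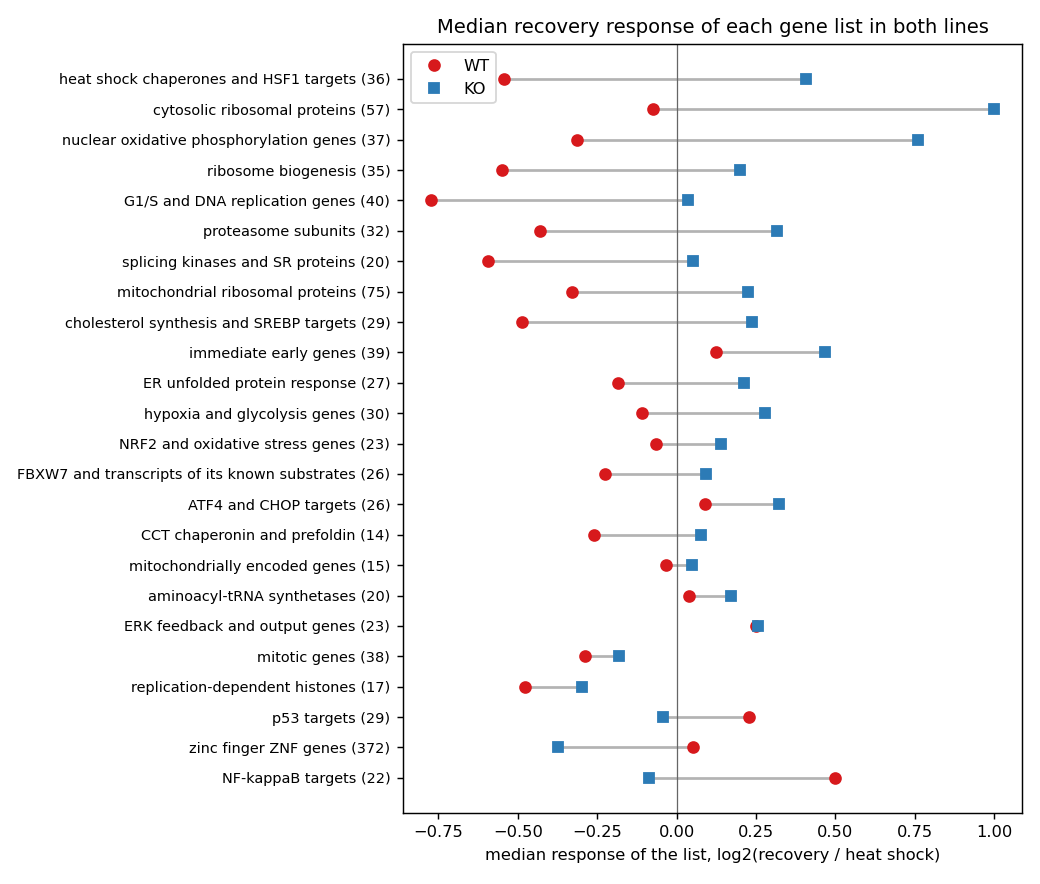
Median recovery response (log2) of 24 gene lists in WT (circles) and KO (squares), with the number of tested members in parentheses and lists ordered by the median difference. Chaperones span from -0.54 to 0.41, ERK feedback genes coincide near 0.25, and NF-kappaB targets run the other way from 0.50 to -0.09.

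Several of the largest single differences were at genes that share exons with a neighbour. Such sharing was common: it held for 42.1% of all tested genes and 48.3% of those more upward in KO. Of the 15 coding genes most upward in KO, OVOL3 overlaps POLR2I, WDR38 overlaps RPL35, FAM166A overlaps TUBB4B, PHOX2A overlaps INPPL1, REC8 overlaps IPO4, NAALADL1 overlaps SAC3D1 and RASGRP4 overlaps FAM98C. Without the strand setting of the counting, their reads cannot be told from those of the neighbour. OVOL3, named for a zinc finger factor, had 4.66 and 4.15 CPM at heat shock and 1.46 and 1.42 CPM at recovery in WT cells, and 0.0374 and 0.0853 and then 5.71 and 3.54 CPM in KO cells, and WDR38 had 26.1 and 34.1 CPM at heat shock and 14.2 and 13.8 CPM at recovery in WT cells, and 0.973 and 0.398 and then 46.2 and 24.1 CPM in KO cells. FAM166A had 85.0 and 72.2 CPM at heat shock and 13.2 and 12.04 CPM at recovery in WT cells, and 23.1 and 20.2 and then 138 and 95.2 CPM in KO cells. The KO heat shock level of OVOL3 lay near the floor, so the size of its KO response is uncertain.

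BANP, POLR2L and CSDC2 had no exon overlap in the annotation. BANP, a nuclear matrix protein, had 50.8 and 31.5 CPM at heat shock and 10.7 and 11.9 CPM at recovery in WT cells, and 22.1 and 16.4 and then 72.3 and 57.6 CPM in KO cells. POLR2L, a subunit shared by the RNA polymerases, had 211 and 188 CPM at heat shock and 60.3 and 62.5 CPM at recovery in WT cells, and 58.0 and 57.6 and then 277 and 186 CPM in KO cells. CSDC2, an RNA-binding cold shock protein, had 23.0 and 20.3 CPM at heat shock and 9.48 and 10.5 CPM at recovery in WT cells, and 4.12 and 4.69 and then 37.1 and 23.8 CPM in KO cells. In each, the KO recovery libraries exceeded the KO heat shock libraries and the WT recovery libraries lay below the WT heat shock libraries. The differences were 3.59 ± 0.20, 3.67 ± 0.17 and 3.85 ± 0.22.

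At the other end, ANGPTL4, a secreted lipase inhibitor, rose in WT from 1.43 and 1.69 to 17.1 and 21.4 CPM and had 0.786 and 1.25 and then 1.47 and 1.14 CPM in KO, a change that did not pass. EDARADD, which overlaps the pseudogene ENO1P1, rose in WT from 0.665 and 0.462 to 12.6 and 12.3 CPM. ZNF90 rose in WT from 0.512 and 0.359 to 12.1 and 11.2 CPM. Their KO responses did not pass. Both genes lay near the floor in the WT heat shock libraries, so the sizes of their WT responses and differences are uncertain. EDARADD had 0.824 and 0.710 CPM at heat shock and 0.357 and 0.457 CPM at recovery in KO cells. These levels are also near the floor, so its KO test could miss a change. ZNF469 had 3.84 and 1.85 CPM at heat shock and 8.08 and 10.5 CPM at recovery in WT cells, and 2.51 and 2.02 and then 0.446 and 0.419 CPM in KO cells, and ZC3H6 had 8.80 and 10.4 CPM at heat shock and 35.6 and 34.6 CPM at recovery in WT cells, and 8.80 and 9.04 and then 3.30 and 4.45 CPM in KO cells. The tests included 820 processed pseudogenes, with a median level of 1.13 to 1.16 CPM in the WT recovery libraries and 0.152 to 0.227 CPM elsewhere. Many can have passed the filter on low counts through the WT recovery libraries alone, so their responses are not described. They remain in the counts over all tested genes.

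A shared direction with different amounts was seen in 162 genes. ELF3, an epithelial ETS factor, rose in both lines and more in WT, with 25.8 and 31.9 CPM at heat shock and 124 and 126 CPM at recovery in WT cells, and 10.1 and 12.1 and then 16.6 and 16.3 CPM in KO cells. PIM1, a survival kinase, had 9.67 and 9.28 CPM at heat shock and 36.7 and 31.5 CPM at recovery in WT cells, and 9.70 and 9.72 and then 12.2 and 12.5 CPM in KO cells. ARRDC4, an arrestin-domain protein, differed by -1.93 ± 0.22 and HBP1, a growth-restraining transcription factor whose exons overlap COG5, by -1.04 ± 0.15. The named genes that rose more in KO included the ribosomal proteins RPS3A and RPL17. RPS3A had 272 and 394 CPM at heat shock and 439 and 406 CPM at recovery in WT cells, and 43.7 and 40.01 and then 431 and 355 CPM in KO cells. RPL17 differed by 2.26 ± 0.21. MCMDC2, which overlaps the snoRNA host SNHG6, also rose more in KO and differed by 2.03 ± 0.14. After the length and GC correction RPS3A and MCMDC2 were no longer called in WT (0.22 and 0.00), nor PIM1 in KO (0.18).

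DDIT4, an inhibitor of mTORC1 signalling, was at 84.9 and 86.4 CPM in the WT heat shock libraries, 274 and 276 CPM in the WT recovery libraries, 17.0 and 16.6 CPM in the KO heat shock libraries and 58.3 and 61.5 CPM in the KO recovery libraries. Recovery libraries exceeded heat shock libraries in both lines, while every KO library stayed below every WT library. The responses were 1.69 and 1.84, and the 95% interval of the difference was -0.13 to 0.43. After the length and GC correction DDIT4 rose by 1.99 and 1.54, a difference of -0.45 (adjusted p = 0.00351), so it rose in both lines but not alike.

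GDF15, a stress cytokine, behaved similarly: 144 and 129 CPM at heat shock and 337 and 302 CPM at recovery in WT cells, and 72.5 and 68.4 and then 159.5 and 173 CPM in KO cells, with responses of 1.23 and 1.24. After the correction the difference was -0.74. JUNB, an AP-1 subunit, had 52.5 and 49.9 CPM at heat shock and 107 and 91.4 CPM at recovery in WT cells, and 48.9 and 54.8 and then 113 and 124 CPM in KO cells, and its difference was -0.36 after the correction. ARRDC3, an arrestin-domain protein that dampens receptor signalling, rose by 1.63 and 1.43, and differed by 0.59 after the correction. CLDN4, a tight junction claudin, MAFF, a small MAF factor, and NR1D1, a circadian repressor whose exons overlap THRA, likewise rose in both lines throughout but moved out of the alike class after the correction.

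Other genes met the rule with and without the correction. AREG, an EGF receptor ligand, had 5.48 and 4.41 CPM in the WT heat shock libraries, 11.7 and 10.1 CPM in the WT recovery libraries, 5.17 and 5.77 CPM in the KO heat shock libraries and 12.01 and 12.6 CPM in the KO recovery libraries. The heat shock libraries of the lines overlapped, and every recovery library exceeded every heat shock library. The responses were 1.14 and 1.17 with an interval of -0.41 to 0.46. ERRFI1, which inhibits the EGF receptor, had 609 and 661 CPM at heat shock and 1054 and 1072 CPM at recovery in WT cells, and 383 and 345 and then 572 and 555 CPM in KO cells. DUSP4, another MAP kinase phosphatase, had 185 and 171 CPM at heat shock and 249.7 and 257 CPM at recovery in WT cells, and 255 and 257 and then 402 and 377 CPM in KO cells. Its KO heat shock level lay at the WT recovery level, and both lines rose from where they were, by 0.51 and 0.61.

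ASNS, the asparagine synthetase and a defining ATF4 target, rose by 0.66 and 0.72, with KO levels of 93.0 and 91.4 and then 159 and 145 CPM against 293 and 358 and 518 and 506 CPM in WT. SAT1, which degrades polyamines, MRPL33 and TNFRSF10B, a death receptor that overlaps RHOBTB2, also met the rule both ways. Their responses ran from 0.33 to 1.23 in WT and from 0.25 to 0.94 in KO. The other members of the ATF4 and CHOP list were not shared as closely. Of 26 tested, 10 rose and 8 fell in WT, beside 24.8% and 26.0% of all genes. In KO 15 rose and 1 fell, beside 20.6% and 21.1%. ATF4 itself fell in WT and rose in KO (-0.73 and 0.34), although its KO response after the correction was 0.13 and did not pass. The opposite members then numbered 2 and 1 instead of 8 and 1. DDIT3, the CHOP factor, whose exons overlap MARS, rose by 0.91 and 1.85.

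The genes that fell alike had varied roles. SLC30A1, a zinc exporter, had 40.4 and 56.3 CPM at heat shock and 20.1 and 20.5 CPM at recovery in WT cells, and 68.5 and 68.7 and then 32.1 and 34.0 CPM in KO cells. It fell in both lines, by 1.24 and 1.05, and after the length and GC correction by 1.56 and 0.58, a difference of 0.98. FAM13B, RNF219, a ubiquitin ligase, GPAM, which begins glycerolipid synthesis, TGS1, which caps small nuclear RNAs, and TRMT6, a tRNA methyltransferase subunit, fell alike without the correction and by different amounts with it. Their GC contents ran from 38.1% to 44.3%.

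GOLGA1, a Golgi golgin, met the rule both ways, with 27.9 and 28.3 CPM in the WT heat shock libraries, 16.04 and 18.8 CPM in the WT recovery libraries, 39.5 and 37.0 CPM in the KO heat shock libraries and 26.8 and 25.2 CPM in the KO recovery libraries. Recovery libraries were below heat shock libraries in both lines, and the KO recovery libraries lay between the WT groups. The responses were -0.69 and -0.56. ZNF367, a zinc finger factor of the cell cycle, had 29.7 and 35.6 CPM at heat shock and 23.2 and 22.2 CPM at recovery in WT cells, and 59.9 and 58.9 and then 33.2 and 36.6 CPM in KO cells, and MKI67 was given above. E-boxes, searched as CACGTG, stood in 29 of 172 promoters of genes that fell alike (16.9%) and in 5 of 78 that rose alike (6.41%), beside 1131 of 11468 tested (9.86%).

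Most genes were no closer between the lines after recovery. Over all tested genes the absolute log2 difference between the lines had a median of 0.438 at heat shock and 0.521 at recovery, and 44.0% of genes were closer at recovery. The opposite and alike classes were defined by the change of the KO minus WT difference, so its shift in them is set by construction. In genes that fell in WT and rose in KO its median was -0.48 at heat shock and 0.72 at recovery, and in the reverse class 0.58 and -0.60. The genes moving alike kept theirs, at -0.37 and -0.34 for those that rose and 0.44 and 0.50 for those that fell.

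Membership was compared across scalings. Under median-of-ratios scaling, upper-quartile scaling and the length and GC correction, 47 of 322 genes remained alike in all of them (20 of 106 that rose and 27 of 216 that fell), and 1551 of 3833 remained opposite (838 of 2004 and 713 of 1829). Among the 24 lists, chaperones had the highest median difference under each of these scalings and NF-kappaB targets the lowest. None of the 24 changed the sign of its median difference under these scalings. With the length and GC correction, replication-dependent histones (-0.72, and -0.10 without it) were level with NF-kappaB targets. Among coding transcripts of at least 1000 bases, cytosolic ribosomal proteins (0.99) and G1/S genes (0.82) lay above chaperones (0.79).

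**Figure D5:**
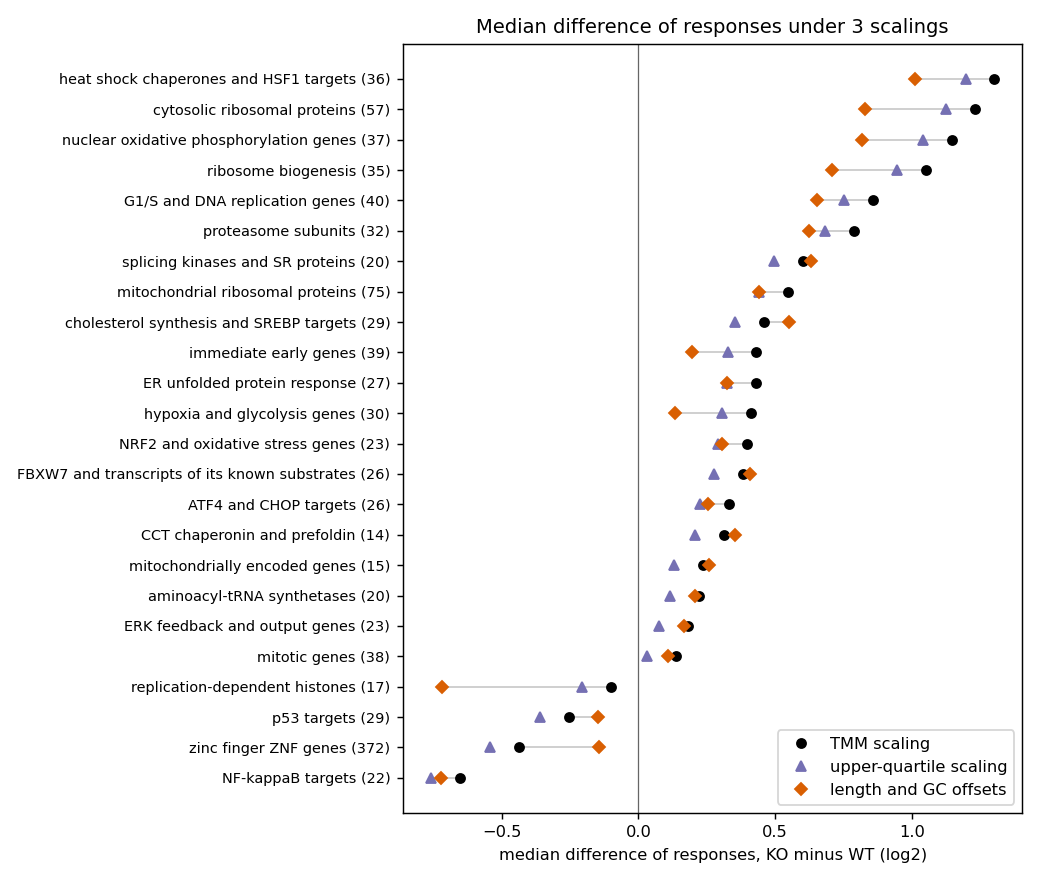
Median difference of responses (KO minus WT, log2) of 24 gene lists under TMM scaling (circles), upper-quartile scaling (triangles) and the length and GC correction (diamonds). Chaperones lie at 1.30, 1.20 and 1.01, NF-kappaB targets at -0.65, -0.76 and -0.72, and zinc finger genes move from -0.44 to -0.14.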

How the data were processed

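RNA-seq of HCT116 cells was deposited as 4 tables, each holding 1 recovery and 1 heat shock library of the same line and replicate number. The count columns deposited by the authors are raw read counts per Ensembl gene, per the file headers and their whole-number values; the recovery library is the first of each pair by the name of the comparison. Per the file headers, the same tables hold the authors' log2 fold changes. The p-values and q-values deposited there are the authors' test of 1 library against the other. The z score deposited there is the authors' statistic of that test. None of these was used for a result. CASAVA, TopHat and hg19 are named in the submitters' processing notes; the counter, its strand setting and its annotation version are not stated there. No column of per-sample values was left unused (0).

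Counts were joined by gene, filtered with filterByExpr, scaled by TMM and tested with edgeR 4.0.16 (R 4.3.3), by quasi-likelihood with 1 term per matched pair, the WT and KO responses, and their difference. The pair term was used because the series' design text compares matched recovery and heat shock libraries within each replicate; what a matched pair shares is not stated. Deviations of same-numbered libraries correlated at -0.014 in each line, over 2 pairs. Adjusted p-values are Benjamini-Hochberg over 17471 genes, called under 0.05. Standard errors are the log2 value over the root of F. The length and GC correction used smooth terms (mgcv 1.9.3) over GENCODE 29 transcripts as gene offsets, for 16673 genes. DESeq2 1.42.0 was an alternative.

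On simulated counts for 16862 genes, the difference was called for 70 of 97 genes at a log2 difference of 1 and for 86 of 96 at 2. The other 16669 genes were simulated without a difference, a smaller changed share than in the data, so these rates do not carry over.

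Members and gene lists were chosen with earlier results of these data known. Genes with a mean count of at least 50 were named by rule: the 15 coding genes with the largest passing difference in each direction, the 10 opposite and 15 alike genes with the largest smaller response in each direction, 6 of the same direction but different size, FBXW7, HSF1, HSF2, MYC, JUN and CCNE1, and per list up to 6 members by the p of the difference and up to 3 alike. Other list members named were chosen after their values were seen. Promoters are from RefSeq (GRCh38.p14); the files are on hg19, so no other coordinates are given. Some results are not reported here.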

Additional observations from a re-analysis of the deposited data

Results flagged for a closer look

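The effect of recovery differed between the lines by the test of the difference itself. By this test 4979 genes were more upward in KO and 4854 more upward in WT, and among them 2004 fell in WT and rose in KO and 1829 did the reverse. Chance alone was not estimated for these counts.

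Among named genes more upward in KO, the difference of responses (log2) was 7.60 for OVOL3, 5.04 for FAM166A, 4.12 for HSPA1B, 3.67 for POLR2L, 3.59 for BANP, 3.54 for SDF2L1, 3.31 for STAB1, 3.30 for DUSP2, 2.90 for ZFAND2A and 2.71 for SERPINH1. OVOL3 shares exons with POLR2I, FAM166A with TUBB4B and STAB1 with NT5DC2. OVOL3 also lay near the floor in the KO heat shock libraries, so the size of its difference is uncertain. The difference was 2.34 for MYC, 0.99 for CCNE1, 0.70 for HSF1 and 0.65 for JUN. The HSF1 and JUN differences did not pass after the length and GC correction.

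Among named genes more upward in WT, it was -4.09 for ZNF469, -3.78 for CCDC110, -3.58 for RBM43, -3.39 for CAPN12, -3.27 for PCMTD1, -3.09 for TCP11L2, -3.06 for ZC3H6, -2.84 for SPTSSB, -2.80 for ZNF254, -2.44 for SESN3 and -1.11 for HSF2. CAPN12 shares exons with ACTN4.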

How the results depend on the processing

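Counts of genes more upward in KO and in WT stayed within 1.5 times of the reported ones under each alternative but a required 1.5-fold change (2540 and 2449). The smaller classes moved more, and the cause was not tested. In DESeq2, 2408 genes fell and 2381 rose in KO, 85 fell alike and 36 rose alike, 1262 and 1095 were opposite and 42 differed in size. At an adjusted p under 0.01, 101 fell and 52 rose alike, 1300 and 1122 were opposite and 50 differed in size. With a required 1.5-fold change, 280 fell and 725 rose in KO, 916 fell and 1345 rose in WT, 4 fell and 9 rose alike, 113 and 80 were opposite and 5 differed in size. With the length and GC correction 191 rose alike, and 1300 and 1215 were opposite. A 2-fold bound gave 200 that rose alike.

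Without the replicate block (the pairing term), 5039 and 4960 genes differed, 2007 and 1888 were opposite, and 246 fell and 107 rose alike. Leaving out 1 library at a time gave 1318 to 4012 that fell and 1520 to 4233 that rose in KO, and 3641 to 4453 that fell and 2922 to 4246 that rose in WT. It gave 27 to 199 that fell alike, 26 to 117 that rose alike, 759 to 2201 that fell in WT and rose in KO, 697 to 1905 of the reverse, 3935 to 5004 more upward in KO, 3671 to 4618 more upward in WT and 72 to 212 of different size. A left-out library leaves its line with 1 pair, taken to vary like the other line. Coding genes of at least 1000 bases with no processed pseudogene, an alternative chosen after seeing the data, gave 1658 and 1498 opposite genes. With 2 pairs a line, a simulated log2 difference of 1 was called in 70 of 97 genes. The simulation held 16669 genes without a difference, whereas 9833 of 17471 genes passed in the data. Its rate of calling therefore does not give the rate in the data, where smaller differences can still be missed.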
